A study of Canis lupus familiaris with 8 samples.

Results

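The miR-29 family of the dog comprises miR-29a, miR-29b and miR-29c, and was followed through the vesicle RNA of malignant and normal canine mammary cells. Its 3 members, cfa-miR-29a, cfa-miR-29b and cfa-miR-29c in the deposited table, were taken by name from that table, which lists 452 mature miRNAs at 511 loci. Of the 452 miRNAs, 193 were above the lowest value of the table in at least 3 of the 8 libraries and were tested, all 3 members of the family among them. The libraries came from 5 canine mammary tumour cell lines of carcinoma origin (CMT-119, CMT-47, CMT-28, CMT-27 and CMT-12) and from 3 samples of normal canine mammary cells (CMEC1, CMEC2 and CMEC3), which the labels call biological replicates without saying whether they came from separate dogs. Each CMT library is thus a single line, and p-values measure the spread between these lines and samples. All cells were grown in the same serum-free synthetic medium. After 24 hours the medium was replaced, and what the cells released over the following 48 hours was harvested on day 3. RNA came from 5 mL of it by a procedure meant to enrich exosomal RNA, so that the values describe released RNA and not the cells themselves. In such material fewer vesicles and less of a miRNA per vesicle cannot be told apart.

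miR-29 miRNAs share the seed with which a miRNA recognises its targets. In human and mouse cells they are best known for repressing genes of the extracellular matrix, such as collagens, elastin and fibrillin, the de novo DNA methyltransferases DNMT3A and DNMT3B, and the survival factor MCL1. Loss of the family accompanies fibrosis in several organs. In human and mouse breast cancer cells miR-29b has been described as a brake on metastasis downstream of the luminal factor GATA3, while miR-29a has been described as promoting loss of epithelial polarity. miR-29b also carries a terminal motif that directs it to the nucleus in human cells.

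The 3 miRNAs come from 5 annotated loci in 2 places of canFam3, the build named in the submitters' processing notes. On the plus strand of chromosome 14, MIR29B-1 (miR-29b) lies from 6184499 to 6184521 and MIR29A (miR-29a) from 6184882 to 6184903, with 360 bases between the mature sequences. On the minus strand of chromosome 7, MIR29C-2 (miR-29c) lies from 6651339 to 6651360 and MIR29B-2 (miR-29b) from 6651878 to 6651900, 517 bases apart. A further copy of miR-29c, MIR29C-1, lies from 6588010 to 6588031 on the same strand, 63307 bases from MIR29C-2, and no other locus of the table lies between them. All 5 names were matched by gene ID to the RefSeq table of another assembly, UU_Cfam_GSD_1.0. There, MIR29B-1 and MIR29A fall within the span of the long non-coding RNA gene LOC102155521, and no listed gene spans the 3 loci on chromosome 7. LOC609365, a protein-coding gene, separates the miR-29c copies.

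The table gives normalised signal on a linear scale with a floor of 1. Above the floor, 99.0% to 100% of the values of a library were whole multiples of 1 step, within 0.05 steps, and reads were recovered by dividing by that step. The CMT libraries held between 81138 (CMT-12) and 1405893 (CMT-27) recovered reads, and the CMEC libraries between 85906 (CMEC2) and 404290 (CMEC1). A single read corresponded to a signal of 0.386 to 2.32 in CMT and of 1.09 to 2.83 in CMEC. A value at the floor holds no read in CMT-12 and in the CMEC samples, at most 1 read in CMT-119, CMT-47 and CMT-27, and at most 2 reads in CMT-28. Of 10 epithelial marker miRNAs, 4 to 9 were above the floor in the CMT libraries and 4 to 6 in the CMEC libraries. miR-183 and miR-182 were high in the CMT lines (801 to 4496 and 1813 to 12045) and in CMEC1 (1676 and 2108), and low in CMEC2 (14.2 and 70.8) and CMEC3 (40.2 and 34.7). miR-200b and miR-429 were above the floor in CMT-27 and CMT-12 alone, and miR-141 was at the floor in all 8 libraries, also in CMT-27, where miR-200c reached 13903. CMT-27 had the highest median log2(value + 1) over the tested miRNAs, at 6.93, against 3.60 to 4.82 in the other 7 libraries. In CMT-12 the liver miRNA miR-122 held 9.74% of the summed signal, against at most 0.277% elsewhere.

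miR-29a was the abundant member in every library. Its signal was 675 in CMT-119, 497 in CMT-47, 1277 in CMT-28, 5095 in CMT-27 and 1296 in CMT-12, against 1330 in CMEC1, 238 in CMEC2 and 211 in CMEC3. CMEC1 lay among the higher CMT lines, so the groups overlapped, while CMEC2 and CMEC3 lay below all 5 lines. The 3 listed muscle markers miR-1, miR-133a and miR-206 had their highest sums in the same samples. Together they held 0.00834% to 0.0731% of the summed signal in the CMT lines, against 0.0435% in CMEC1, 1.49% in CMEC2 and 0.230% in CMEC3. Of the 3, 1 or 2 were above the floor in the CMT lines and 2, 3 and 3 in CMEC1, CMEC2 and CMEC3. miR-206 was at the floor in the CMT lines and CMEC1, and at 2570 in CMEC2 and 298 in CMEC3. miR-1 was at 25.1 to 352 in the CMT lines, against 182 in CMEC1, 1060 in CMEC2 and 805 in CMEC3. miR-133a differed from both, at 1 to 4.16 in the CMT lines against 8.70 in CMEC1, 5.67 in CMEC2 and 2.77 in CMEC3. miR-499, a heart and slow-muscle miRNA outside the list, went the other way. Its signal was 40.2 to 251 in the CMT lines, against 92.5 in CMEC1, 17.0 in CMEC2 and 18.02 in CMEC3. The part of these markers in the level of miR-29a was not tested. The miR-29a values rested on 559 to 7366 recovered reads in the CMT lines and on 84 to 1223 in the CMEC samples. miR-29a ranked between 21 and 42 among the miRNAs of a CMT library and between 29 and 47 in a CMEC library.

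miR-29b was far less abundant. Its signal was 12.5 in CMT-119, 13.9 in CMT-47, 37.1 in CMT-28, 165 in CMT-27 and 69.6 in CMT-12, against 41.3 in CMEC1, 2.83 in CMEC2 and 47.1 in CMEC3. The groups overlapped throughout: CMEC1 and CMEC3 exceeded 3 of the 5 lines, and CMEC2 held the lowest value of all, which was 1 read. The CMT values rested on 14 to 238 reads.

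miR-29c was near the limit of detection outside CMT-27. Its signal was at the floor of 1 in CMT-119, 1.39 in CMT-47, 3.86 in CMT-28, 80.9 in CMT-27 and 9.27 in CMT-12, against 2.18 in CMEC1 and the floor in CMEC2 and CMEC3. In reads, these were 2 in CMT-47, 10 in CMT-28, 117 in CMT-27 and 4 in CMT-12, against 2 in CMEC1 and 0 in CMEC2 and CMEC3. In signal, CMT-28, CMT-27 and CMT-12 were thus above all CMEC samples, and CMT-47 and CMT-119 were not. A count of 0 allows up to 3 reads, or 34.9 RPM (recovered reads scaled to a library total of 1000000) in CMEC2 and 8.66 RPM in CMEC3, so the 0 in CMEC2 does not exclude a level like the 11.8 RPM of CMT-28.

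**Figure D1:**
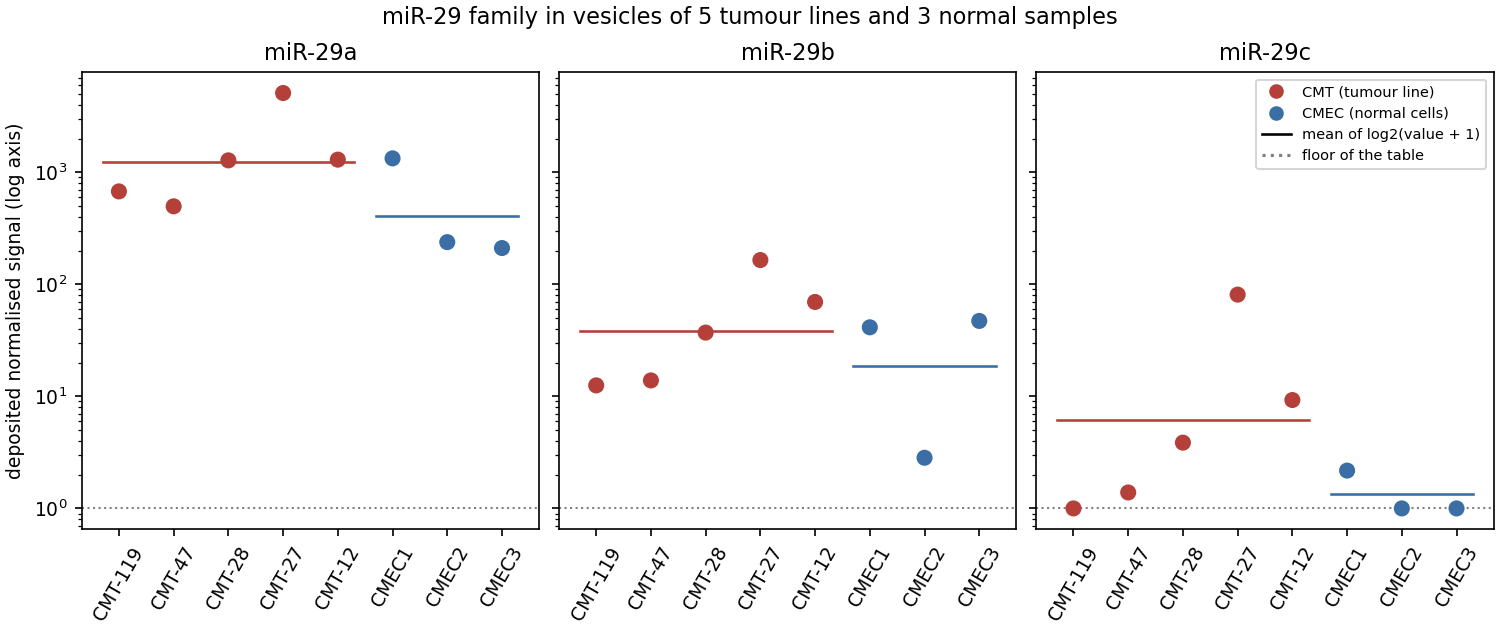
Deposited normalised signal (log axis) of miR-29a, miR-29b and miR-29c in each library, with CMT lines in red and CMEC samples in blue. Horizontal lines are the group means of log2(value + 1) and the dotted line is the floor of 1. miR-29a lies between 497 and 5095 in the CMT lines, and CMEC1 (1330) lies within that range while CMEC2 and CMEC3 (238 and 211) lie below it.

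The comparison of CMT lines with CMEC samples addresses which vesicle miRNAs differ between malignant and normal mammary cells. No member of the family passed the threshold in it (0 of 3), and 0 of all 193 tested miRNAs did, which is 0% (limma, Benjamini-Hochberg adjusted p under 0.05 over all 193). On the log2(value + 1) scale miR-29a averaged 10.27 ± 1.29 in CMT and 8.67 ± 1.48 in CMEC (SD, n = 5 and 3). The difference was 1.60 ± 1.03 (SE), with a 95% interval of -0.58 to 3.78 (limma adjusted p = 0.537). miR-29b averaged 5.28 ± 1.53 in CMT and 4.31 ± 2.06 in CMEC, a difference of 0.97 ± 1.37 with an interval of -1.92 to 3.87 (limma adjusted p = 0.769). miR-29c averaged 2.85 ± 2.17 in CMT and 1.22 ± 0.39 in CMEC, a difference of 1.63 ± 1.07 with an interval of -0.64 to 3.89 (limma adjusted p = 0.537). The intervals include both no difference and differences of several fold, so they do not show that the groups are alike. The difference of a low miRNA such as miR-29c depends on the constant added before the log. It was 1.97 with 0.1 added and 0.80 with 10 added, and 1.35 in a limma-voom fit on recovered reads.

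Without adjustment the p-values of miR-29a, miR-29b and miR-29c were 0.140, 0.487 and 0.147 (limma), whereas 10.9% of the tested miRNAs had an unadjusted p under 0.05. All 3 differences were above 0, as were 73.1% of those of all tested miRNAs, whose median was 0.75. Of the 193 differences, 43 were larger than that of miR-29a, 81 larger than that of miR-29b and 41 larger than that of miR-29c. No member separated the groups without overlap, which 7.77% of the tested miRNAs did with CMT higher and 1.55% with CMT lower.

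The size of each difference depended on the scaling of the libraries and on single libraries. After each library was centred on its median over the tested miRNAs, the differences were 0.76 for miR-29a, 0.14 for miR-29b and 0.79 for miR-29c. miR-29a was 2.45 higher in CMT without CMEC1 (limma unadjusted p = 0.0449, adjusted p = 0.364). The CMT and remaining CMEC values did not overlap then, as held, with CMT higher, for 20.2% of the 178 miRNAs tested without CMEC1. Its difference was 1.09 without CMT-27, and the miR-29c difference was 0.75 without CMT-27. miR-29b was 0.21 lower in CMT (log2 difference -0.21) without CMEC2, the library in which it had a single read.

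**Figure D2:**
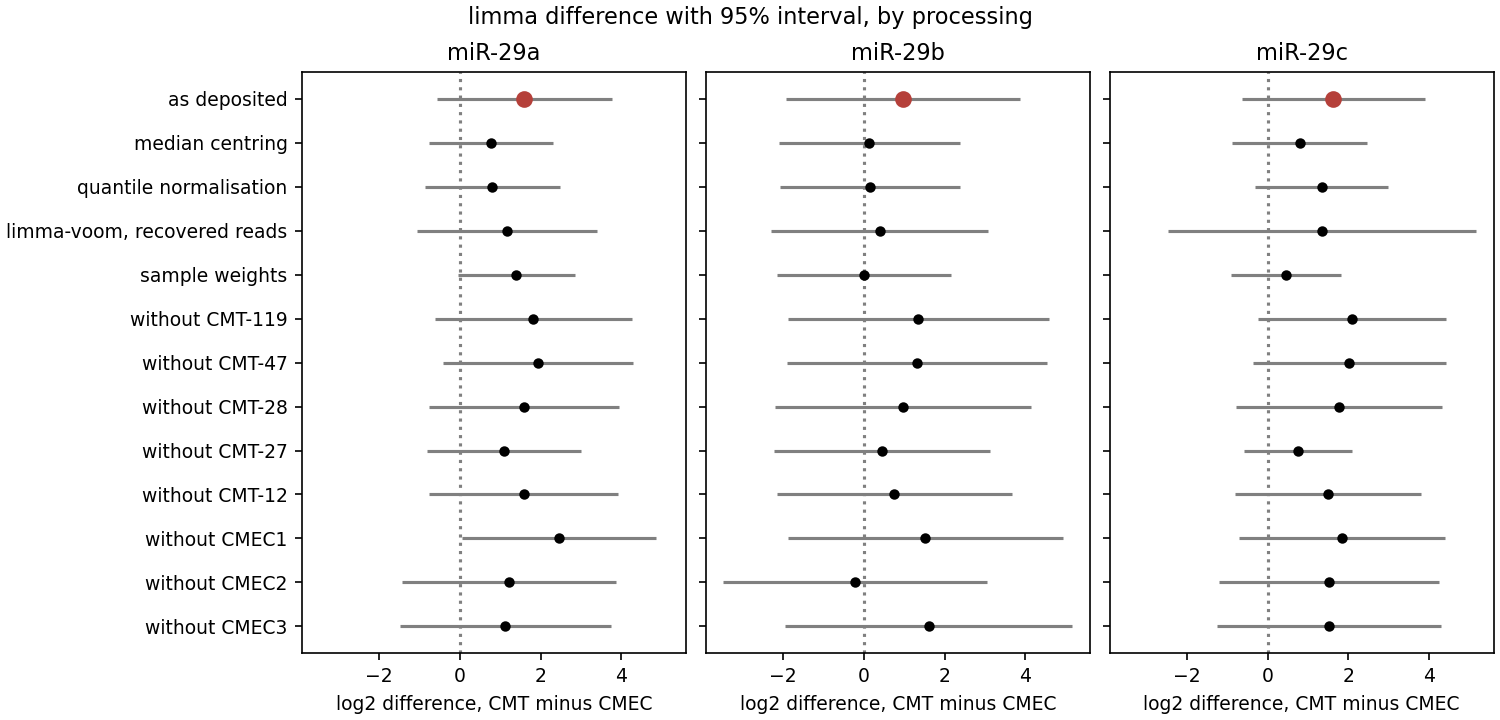
Difference in log2(value + 1) between CMT and CMEC (points, limma) with its 95% interval (lines) for each member, as deposited in red and under other scalings, fits or with 1 library left out in black. The dotted line marks no difference. The interval of miR-29a includes 0 in each row except the row without CMEC1, and that of miR-29b is centred near 0 with median centring.

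A share of the summed signal does not depend on the factor by which a library was scaled. miR-29a held 0.139% of the summed signal in CMT-119, 0.0685% in CMT-47, 0.390% in CMT-28, 0.524% in CMT-27 and 0.688% in CMT-12, against 0.302% in CMEC1, 0.0977% in CMEC2 and 0.0438% in CMEC3. On this scale CMT-47 fell below CMEC2, and CMT-12, not CMT-27, was the highest. The mean was 0.362% ± 0.259 in CMT and 0.148% ± 0.136 in CMEC (SD, n = 5 and 3; two-sided exact permutation p = 0.232, and 0.429 adjusted over the 3 members' shares). The smallest p that 5 libraries against 3 can give is 0.0179. miR-29b held 0.0139% ± 0.0143 in CMT and 0.00679% ± 0.00487 in CMEC (SD, n = 5 and 3; exact permutation p = 0.536). miR-29c held 0.00296% ± 0.00357 in CMT and 0.000371% ± 0.000147 in CMEC (SD, n = 5 and 3; exact permutation p = 0.286), where libraries at the floor enter with a value of 1. Single libraries carried part of these differences: without CMT-12 the difference in percentage points was 0.133 for miR-29a and 0.0014 for miR-29b, against 0.214 and 0.00715 with all libraries. For miR-29b it was 0.00434 without CMEC2, and for miR-29c it was 0.00125 without CMT-27, against 0.00259. With miR-21 left out of the summed signal the difference was 0.417 for miR-29a, 0.0128 for miR-29b and 0.00479 for miR-29c. The whole family made up 0.0706% to 0.730% of the signal in CMT lines and 0.0538% to 0.312% in CMEC samples.

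The 4 libraries with the highest shares of miR-29a held less miR-143 than the rest, and mostly had higher sums of the epithelial markers. miR-143 made up most of the mesenchymal marker sum. Within the 4 the order was not kept: CMT-12, highest in miR-29a, had more miR-143 (459) than CMT-27 (129). The 4 mesenchymal or smooth-muscle markers miR-143, miR-145, miR-199 and miR-214 together held 6.0% in CMT-119, 13.9% in CMT-47, 4.39% in CMT-28, 0.0152% in CMT-27 and 0.255% in CMT-12, against 1.68% in CMEC1, 18.5% in CMEC2 and 13.03% in CMEC3. The 4 libraries with the lowest marker sums, CMT-27, CMT-12, CMEC1 and CMT-28, were those with the highest shares of miR-29a. miR-143 alone was 86.7% to 99.8% of that sum in CMT and 96.1% to 98.1% of it in CMEC. miR-199 did not follow the same split, with 1616 in CMT-28 but 4.48 in CMT-119 and 12.5 in CMT-47, which had less miR-29a. In CMT, 3 or 4 of the 4 markers were above the floor, as in CMEC, with miR-214 at the floor in CMT-119, CMT-47, CMT-27 and CMEC1, and miR-145 in CMT-12. The 10 epithelial markers together held 0.722% in CMT-119, 0.893% in CMT-47, 1.09% in CMT-28, 3.44% in CMT-27 and 5.36% in CMT-12, against 0.875% in CMEC1, 0.0563% in CMEC2 and 0.0214% in CMEC3. CMT-12 and CMT-27 were highest and CMEC3 lowest for both the epithelial sum and miR-29a, whereas CMT-47 had an epithelial sum close to that of CMEC1 and a far lower share of miR-29a. In CMT-119, CMT-47, CMT-28 and CMEC1 the epithelial sum lay mostly in miR-183 and miR-182. Other markers did not all follow miR-29a: CMT-28 had miR-200a, miR-200c and miR-205 at the floor and miR-203 at 7.73. CMEC1 had these at 1, 5.44, 3.26 and 3.26, and CMEC2, with less miR-29a, had them at 5.67, 25.5, 5.67 and 11.3. CMT-27 and CMT-12 were higher in miR-200a (380 and 232), miR-200c (13903 and 2022) and miR-203 (625 and 879). The part of these markers in the levels of miR-29a was not tested. Relative to the library median the order was looser: miR-29a lay 5.30, 4.34, 6.46, 5.38 and 5.61 log2 units above it in CMT-119, CMT-47, CMT-28, CMT-27 and CMT-12, against 5.56, 4.28 and 4.13 in CMEC1, CMEC2 and CMEC3.

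**Figure D3:**
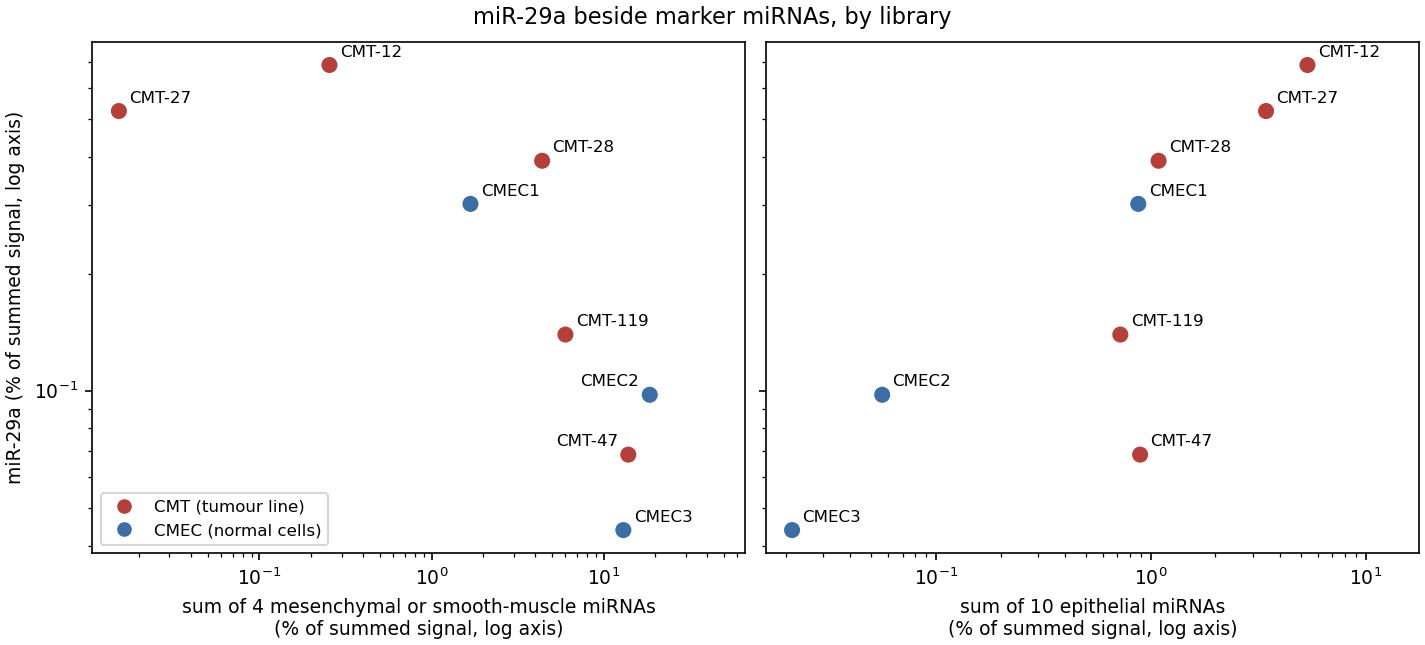
Percent of the summed signal held by miR-29a (vertical, log axis) against that held by 4 mesenchymal or smooth-muscle marker miRNAs (left) and by 10 epithelial marker miRNAs (right, both log axes), 1 point per library, with CMT in red and CMEC in blue. The points with 0.302% or more miR-29a (CMT-12, CMT-27, CMT-28 and CMEC1) have mesenchymal sums of 4.39% or less.

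The proportion of miR-29b to miR-29a was low in 7 libraries, and CMEC3 stood apart with the highest. A ratio of reads within a library does not depend on its scaling. For every 100 reads of miR-29a there were 1.86 reads of miR-29b in CMT-119, 2.79 in CMT-47, 2.91 in CMT-28, 3.23 in CMT-27 and 5.37 in CMT-12, against 3.11 in CMEC1, 1.19 in CMEC2 and 22.4 in CMEC3. The exact 95% binomial interval in CMEC3 was 14.9 to 32.6, and the highest upper bound of any other library was 7.75, in CMT-12. CMEC3 and CMEC1 had like levels of miR-29b, at 98.1 and 94.0 RPM, but 439 and 3025 RPM of miR-29a. As these counts carry no molecular identifiers, the intervals cover counting error only. On log2(value + 1), where a low member still depends on scaling, the log2 ratio of miR-29b to miR-29a averaged -4.98 ± 0.52 in CMT and -4.36 ± 1.99 in CMEC (SD, n = 5 and 3; two-sided exact permutation p = 0.625, and 0.938 adjusted over 3 ratios). It was 0.48 higher in CMT without CMEC3, against 0.63 lower with it (log2 difference -0.63).

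**Figure D4:**
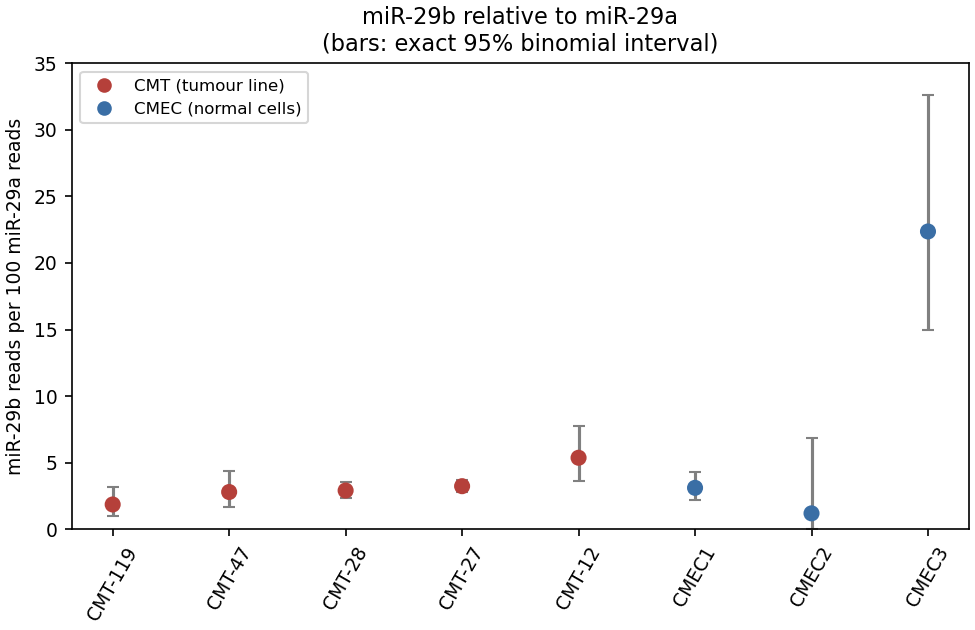
Reads of miR-29b per 100 reads of miR-29a in each library, with CMT lines in red and CMEC samples in blue. Bars are exact 95% binomial intervals. CMEC3, at 22.4, lies above the intervals of all other libraries, whose values run from 1.19 to 5.37.

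miR-29c made up the largest part of the family in CMT-27. It was 1.52% of the family's reads there (exact binomial 95% interval 1.25 to 1.81). It was 0 of 768 reads in CMT-119, 0.271% in CMT-47, 0.293% in CMT-28 (0.141 to 0.539) and 0.675% in CMT-12 (0.184 to 1.72), against 0.158% in CMEC1 (0.0192 to 0.571), 0 of 85 reads in CMEC2 and 0 of 186 reads in CMEC3. The interval of CMT-27 lay above those of CMT-119, CMT-47, CMT-28 and CMEC1. It overlapped that of CMT-12 and those of CMEC2 and CMEC3, which reach up to 4.25% and 1.96%. In CMT-119 the floor can hide 1 read of miR-29c. The log2 ratio of miR-29c to miR-29a averaged -7.42 ± 0.97 in CMT and -7.45 ± 1.10 in CMEC (SD, n = 5 and 3; exact permutation p = 0.982), a difference of 0.030 that was 0.21 in recovered reads and -0.77 with a pseudocount of 10. The log2 ratio of miR-29b to miR-29c averaged 2.43 ± 0.80 in CMT and 3.09 ± 1.91 in CMEC (exact permutation p = 0.607). These averages are bounded by the floor in the libraries without reads of miR-29c.

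miR-29b can arise from both places, and the table gives both loci a value. The locus on chromosome 7, which had the higher mean and was used above, had 14, 20, 96, 238 and 30 reads in CMT-119, CMT-47, CMT-28, CMT-27 and CMT-12, against 38, 1 and 34 in CMEC1, CMEC2 and CMEC3. The locus on chromosome 14 had 9, 14, 93, 191 and 9 reads in the CMT lines in the same order, against 34, 1 and 31 in the CMEC samples. The chromosome 7 locus was never below the other. It held 76.9% of their sum in CMT-12 (exact binomial 95% interval 60.7 to 88.9) and 55.5% in CMT-27 (50.6 to 60.2), and in the other 6 libraries the interval included equal parts. How reads that match both loci were assigned is not given in the sources used here, so a read may stand at both loci. The intervals hold only if each read was counted at a single locus, and the split does not show which locus was transcribed. The 2 loci of miR-29c had identical values in all 8 libraries, as did the loci of 21 of the 45 miRNAs with several loci. Reads of miR-29c thus cannot be assigned to a copy.

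Among the other tested miRNAs, those with the profile nearest to a member were found from the mean absolute difference over the 8 libraries, after each miRNA was centred on its own mean. The nearest to miR-29a were miR-499, known from heart and slow muscle, at 0.26 log2 units, miR-20a at 0.36 and miR-93 at 0.41, both of proliferation-linked clusters. The median over all 190 other miRNAs was 1.20, and miR-29b and miR-29c were both at 0.79 from miR-29a. miR-499 had a signal of 40.2 to 251 in the CMT lines against 92.5, 17.0 and 18.02 in CMEC1, CMEC2 and CMEC3, the same split of the normal samples as for miR-29a. miR-20a did not share it, with 118.6 in CMEC1 against 56.7 and 49.9 in CMEC2 and CMEC3, below all 5 lines (166.5 to 1553). Nearest to miR-29b were miR-125b at 0.63, miR-125a at 0.73 and miR-421 at 0.75, and nearest to miR-29c were miR-410 at 0.55, miR-130b at 0.56 and miR-329b at 0.57. The 3 miRNAs nearest to miR-29c, like it, were at the floor in CMEC2 and CMEC3, which draws such profiles together. These likenesses rest on 8 libraries and are descriptions.

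**Figure D5:**
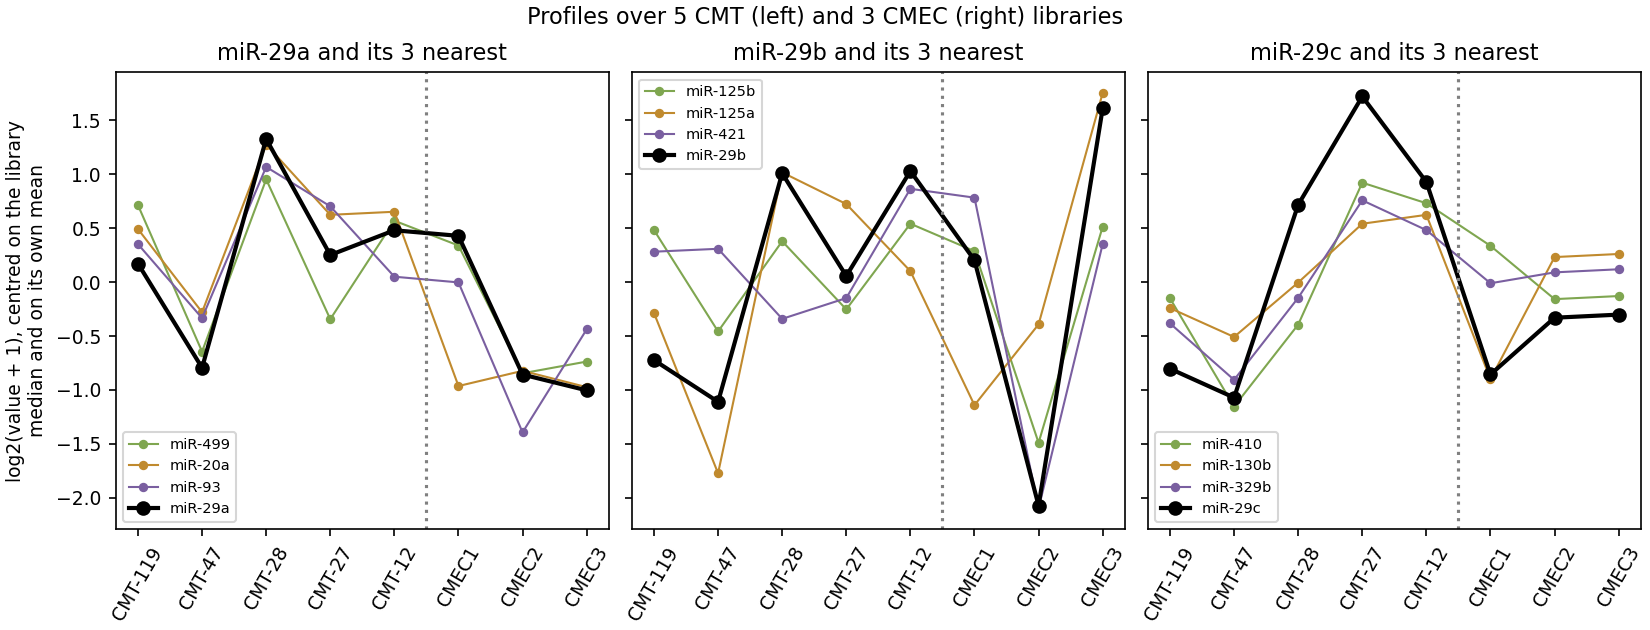
Profiles of miR-29a, miR-29b and miR-29c (black) and of the 3 miRNAs nearest to each (coloured) over the 8 libraries, as log2(value + 1) centred on the library median and on each miRNA's own mean. CMT lines stand left and CMEC samples right of the dotted line. miR-499 follows miR-29a within 0.26 log2 units on average, and the miR-29b profile has its extremes in CMEC2 and CMEC3.

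Of 11 other miRNAs described to target DNA methyltransferases, 10 were tested. Of these, 0 passed the threshold, against 0% of all tested miRNAs, and 0 had an unadjusted p under 0.05, against 10.9%. Their median log2 difference was 0.54, against 0.75 over all tested miRNAs, and 3 of the 10 were above that overall median. miR-148a, a milk-abundant miRNA that targets DNMT1, had a signal of 18539, 32165, 13067, 10582 and 3858 in CMT-119, CMT-47, CMT-28, CMT-27 and CMT-12, against 10652 in CMEC1, 59424 in CMEC2 and 120309 in CMEC3. It was thus highest in CMEC2 and CMEC3, in which miR-29a was lowest (log2 difference -1.75 ± 0.99, limma adjusted p = 0.537). Its relative miR-152 had a log2 difference of -1.67 ± 1.33 (limma adjusted p = 0.594). miR-143, which targets DNMT3A as the miR-29 family does, had -2.52 ± 1.72 (limma adjusted p = 0.537), and miR-185, which targets DNMT1, had 1.34 ± 1.05 (limma adjusted p = 0.594).

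miRNAs described in TGF-beta signalling and matrix production, the process with which miR-29 is most often linked, numbered 20 in the list, of which 16 were tested. Of the untested, miR-200b and miR-429 were above the floor in CMT-27 and CMT-12 alone, and miR-141 was at the floor in all 8 libraries. The counts and median below leave them out. Of the 16 tested, 0 passed the adjusted threshold, against 0% of all tested miRNAs. With CMT lower, 2 of the 16 had an unadjusted p under 0.05, against 4.15% of all tested miRNAs. With CMT higher 0 of the 16 did, against 6.74%. Their median log2 difference was -0.21, against 0.75 over all tested miRNAs. Of the 16 differences, 8 were above 0, against 73.1% of all tested. The 2 were miR-199 and miR-214, transcribed together in fibroblasts, which were also among the mesenchymal markers above. miR-199 was at 4.48 to 1616 in the CMT lines against 129, 1623 and 1097 in CMEC1, CMEC2 and CMEC3 (log2 difference -4.19 ± 1.61, limma adjusted p = 0.385). miR-214 was at 1 to 5.02 in the CMT lines against 1, 65.2 and 51.3 in CMEC1, CMEC2 and CMEC3 (-2.79 ± 1.11, limma adjusted p = 0.385). miR-133a, which also targets collagen and connective tissue growth factor in heart, had a log2 difference of -1.30 ± 0.66 (limma adjusted p = 0.471), with at most 8.70 in any library. The p53-induced miR-34a had -1.31 ± 0.70 (limma adjusted p = 0.512), with at most 8.32. miR-21, which is raised in fibrosis, had 0.69 ± 0.96 (limma adjusted p = 0.769).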

How the data were processed

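Small RNA libraries of vesicle RNA from 5 CMT lines and 3 CMEC samples were used, with groups from the labels. The authors deposited normalised signal per mature miRNA locus, mapped to canFam3 per the submitters' processing notes. For aligner, counting and normalisation nothing is given in the sources used here. Of several loci of a miRNA, that with the highest mean was kept. Recovered reads (value divided by the step of the library, floor as 0) served read counts, intervals, ratios and an alternative limma-voom fit, not the main test. All pairs of libraries differed by more than sampling noise (lowest chi-square per degree of freedom 45.9, CMEC2 and CMEC3).

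log2(value + 1) of miRNAs that exceeded the floor in 3 or more of the 8 libraries was fitted with limma 3.58.1 (eBayes with intensity trend, R 4.3.3), CMT minus CMEC, with Benjamini-Hochberg adjustment at 0.05. It was tested on simulated data. Shares and ratios were tested by exact permutation over 56 splits (scipy 1.17.1). Alternatives varied pseudocount, filter, scaling, fit, loci and libraries. Members, lists and tests were chosen with earlier results of these data known. miRNAs named were the members, the 3 nearest to each, and up to 4 per list with the smallest p, plus miR-21 and miR-148a. Marker miRNAs and miR-122 are named for the check of the labels. No sample column was left unused, and the worm spike-in was not analysed here.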

Additional observations from a re-analysis of the deposited data

Results flagged for a closer look

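Among the 5 CMT lines, 12 quantities of the family were examined for a line well away from the rest (the 3 CMEC samples were too few), and 1 was found, where chance finds about 1 in 20. The log2 ratio of miR-29b to miR-29c was 1.02 in CMT-27, far below the next line, CMT-47, at 2.64, and the other lines at up to 2.97. CMT-27 had 238 reads of miR-29b and 117 of miR-29c. In the other lines the ratio rested on 0 to 10 reads of miR-29c, with the floor standing in for CMT-119, and CMT-27 was also the deepest library, with 1405893 recovered reads. The part of depth in this ratio was not tested.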

How the results depend on the processing

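Of 145 alternative values, 135 kept their direction and their side of the threshold (for counts, the number called), 7 changed sign and 3 were counts that moved. The number of miRNAs called was 0 as deposited, 15 with sample weights, 7 with median centring without CMEC1, and 0 to 6 with each library left out (6 without CMEC1). No member was among the called in any of these fits. With each library left out, miR-29a ran from 1.09 to 2.45, miR-29b from -0.21 to 1.61 and miR-29c from 0.75 to 2.09. Under the other settings they ran from 0.66 to 1.60, 0.0025 to 1.07 and 0.33 to 1.97, with adjusted p from 0.218, 0.585 and 0.433 up to 1 over all settings. Leave-one-out ranges of the log2 ratios were -1.43 to 0.48 for miR-29b to miR-29a, -0.60 to 0.39 for miR-29c to miR-29a and -1.73 to 0.095 for miR-29b to miR-29c. The ratio of miR-29c to miR-29a was 0.030 as deposited, and -0.77 with a pseudocount of 10. The shares kept CMT higher, at 0.133 to 0.291 percentage points for miR-29a, 0.0014 to 0.0102 for miR-29b and 0.00125 to 0.00329 for miR-29c with each library left out. miR-29c gave no value with the filter on all 8 libraries. Median centring moved the median difference of all tested miRNAs to -0.089. The voom fit, chosen after seeing the data, used library totals, and the planned count models and trimmed-mean scaling on recovered reads were not run, since values at the floor hide reads. The labels pair no CMT line with a CMEC sample, so no paired analysis was made. They give the CMT lines no replicate numbers, and the numbers used to leave out lines follow sample order and pair nothing. Depth limits miR-29c and, in CMEC2, miR-29b.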
